A study of Mus musculus with 21 samples.

Results

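The 10 genes described here are regulators and markers of neural progenitors and of the formation of neurons: Sox2, Pax6, Hes1, Hes5, Vim, Nes, Hopx, Neurog2, Eomes and Dcx. They were chosen by symbol, as genes that mark successive steps from neural stem cell to migrating neuron. All 10 are among the 21872 symbols of both tables. The RNA came from mouse brain after plain water (control) or after trientine (TETA), a copper-chelating drug whose groups the labels call copper-deficient. There were 6 control and 6 TETA libraries at embryonic day 18.5 (E18.5), and 5 control and 4 TETA libraries at 7 weeks after birth. The labels name brain as the tissue of every library, and the protocol text names only the prefrontal cortex of male animals aged 7 weeks, so region and sex at E18.5 were taken as not stated. Strain, dose, route, the time on the drug, and whether replicates came from separate animals or litters are not given in the sources used here. The p-values therefore measure only the spread between these libraries, which may be technical in part. At E18.5 each group held libraries with high and with almost no Y-linked RNA. The libraries of a group there thus did not all come from the same animal.

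In the developing cortex, neural stem cells called radial glia line the ventricle, where Sox2 and Pax6 maintain them. Notch receptors on these cells are activated by ligands on their neighbours and, through the DNA-binding protein Rbpj, switch on Hes1 and Hes5, basic helix-loop-helix repressors that hold back neuronal differentiation. Where Notch signalling is low, proneural factors such as Neurog2 are released, cells pass through an Eomes-positive intermediate progenitor stage, and the young neurons that follow carry the microtubule-binding protein Dcx as they migrate. In adult brain several of these genes are also used by astrocytes (Sox2, Hes5, Hopx) and by blood vessel cells (Vim, Nes, Hes1). In bulk RNA, fewer cells of a type and less RNA per cell cannot be told apart.

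The genes that the results turn on most are the pair of Notch effectors and Sox2. Hes1 lies at chr16:30064384-30067796, Hes5 at chr4:154960923-154962371 and Sox2 at chr3:34650405-34652461, all on the forward strand in the GENCODE annotation of mm10. The RefSeq promoter table (GRCm38.p6, the same assembly) had entries for 9 of the 10 members; Hes1 was the one without. Windows of 300 bases are shown for Hes5 and Sox2, the members that passed the adjusted threshold as lower in TETA at 7 weeks, each running from 250 bases before a start site to 50 after it. Both are given from 5′ to 3′ on the forward strand, Hes5 at chr4:154960673-154960972 and Sox2 at chr3:34649745-34650044. The Hes5 window spans the gene start given above. The Sox2 window ends before the gene start given above, as its RefSeq start site lies upstream of the GENCODE one. Capitals mark the motif GTGGGAA, which Rbpj is known to bind, and its reverse complement, TTCCCAC.
Hes5: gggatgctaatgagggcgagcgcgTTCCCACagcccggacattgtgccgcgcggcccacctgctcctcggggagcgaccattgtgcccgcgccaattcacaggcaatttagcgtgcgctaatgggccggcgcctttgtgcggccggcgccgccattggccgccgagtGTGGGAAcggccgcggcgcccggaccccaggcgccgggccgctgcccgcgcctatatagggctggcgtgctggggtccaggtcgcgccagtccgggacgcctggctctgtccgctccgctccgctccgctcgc
Sox2: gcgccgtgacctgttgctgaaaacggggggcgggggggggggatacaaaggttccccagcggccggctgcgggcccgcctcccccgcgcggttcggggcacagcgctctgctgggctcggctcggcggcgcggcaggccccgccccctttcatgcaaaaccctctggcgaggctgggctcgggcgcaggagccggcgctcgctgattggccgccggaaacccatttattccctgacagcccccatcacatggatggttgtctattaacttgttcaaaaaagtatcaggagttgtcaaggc
The Hes5 window held the motif at 2 places, beginning 226 and 83 bases before the start site; the match farther from the start site is on the reverse strand and the nearer one on the forward strand. At least 1 match was found in 6.38% of the 32851 windows in the table and at least 2 in 0.256%. Neither the Sox2 window nor any other member's window held these letters. The motif CACNAG, searched on both strands, is the N box to which Hes proteins bind. Windows of 6 members held it (Vim, Pax6, Neurog2, Hopx, Eomes and Dcx), as did 42.5% of all windows. The 9 members with entries had 12 windows, so a count of members is not on the same footing as a share of windows. No member's window held both motifs. Such matches describe letters and are not evidence of binding.

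Library totals ran from 14678265 to 24308555 counts in the embryo and from 17838051 to 24035857 counts in the older animals. In the E18.5 table, 1940 genes at 0 in control replicate 1-1 hold multiples of 11 in all other libraries and were divided by 11; no member was among them. As a check of the labelled tissue, 6 neuronal marker genes summed to 1044 to 1147 CPM (counts relative to the library total) at E18.5 and to 7856 to 8294 CPM at 7 weeks, while 7 hindbrain genes (Hox and En genes) summed to at most 1.12 CPM in any library. The 4 Y-linked genes examined summed to between 0.0 and 228 CPM at E18.5, so libraries of both sexes were included, and to 129 to 154 CPM at 7 weeks. Control replicate 1-2 was the lowest of its group for Eomes and Neurog2, and TETA replicate 1-2 was the lowest of its group for Hes1 and Hes5.

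The comparison of TETA with control at E18.5 asks whether the chelator alters the embryonic brain while cortical neurons are still being made. None of the 10 members passed the adjusted threshold there. Levels are CPM after scaling of library sizes by the trimmed mean of M-values (TMM), and differences were tested by quasi-likelihood in edgeR, with p-values adjusted by Benjamini and Hochberg's method over all 13794 genes tested, with a threshold of 0.05. Over all genes, 0 passed (0.0%) and 660 had an unadjusted p under 0.05 (4.78%); among the members 1 did, Hopx. DESeq2 passed 10 genes in all and leaving out TETA replicate 1-2 passed 7, with 0 members in either case. The values of control and TETA overlapped for all 10 members, and they did not overlap for 0.312% of all genes. Of the 10 members 7 had a log2 fold change above 0, as had 48.2% of all genes.

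**Figure D1:**
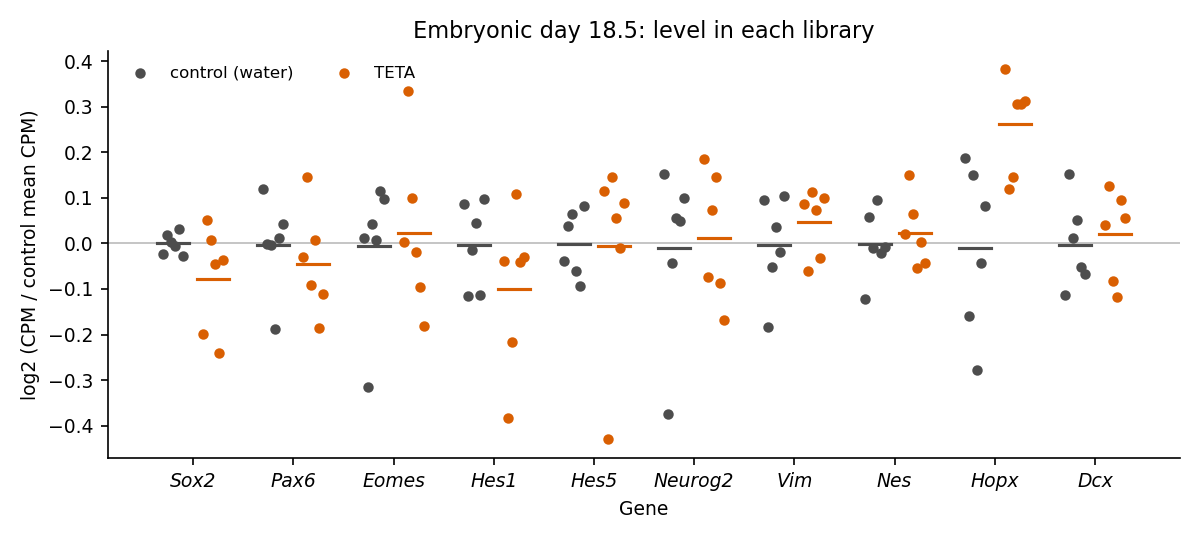
Level of the 10 members in each of the 12 libraries at E18.5, as log2 of CPM over the control mean (vertical axis), for control (grey) and TETA (orange); points are libraries and short lines the mean of the points. The groups overlap for every gene, and Hopx is the gene whose TETA libraries lie mostly above control.

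The stem cell transcription factors overlapped between groups at E18.5. Sox2 was at 64.6 to 67.4 CPM in control (median 65.9) and at 55.7 to 68.3 CPM in TETA (median 64.1). The 6 control libraries lay within a narrow band inside the TETA range, and TETA replicates 1-1 and 3-1 were the lowest of the 12. The log2 fold change was -0.07 (SE 0.045; adjusted p = 0.996 in the edgeR fit). Pax6, the homeobox factor that also marks radial glia, was at 24.5 to 30.3 CPM in control (median 28.0) and at 24.5 to 30.9 CPM in TETA (median 26.8), with a log2 difference of -0.04 (SE 0.060).

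Both Notch effectors also overlapped between groups in the embryo. Hes1 was at 4.62 to 5.34 CPM in control (median 5.05) and at 3.83 to 5.39 CPM in TETA (median 4.86). Hes5 was at 13.8 to 15.6 CPM in control (median 14.7) and at 10.9 to 16.3 CPM in TETA (median 15.5). The low end of both TETA ranges was replicate 1-2, at 3.83 CPM for Hes1 and 10.9 CPM for Hes5, while the other 5 TETA libraries held at least 14.6 CPM of Hes5. Log2 fold changes were -0.09 (SE 0.093) for Hes1 and 0.01 (SE 0.077) for Hes5, each smaller than its SE.

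Among the radial glial markers, Hopx stood highest in TETA without passing the adjusted test. Hopx encodes a small homeodomain-only protein found in subsets of radial glia and, later, in astrocytes. It was at 7.07 to 9.76 CPM in control (median 8.69) and at 9.30 to 11.2 CPM in TETA (median 10.6). Of the 6 TETA libraries, 4 lay above the highest control library, and 2 (replicates 1-2 and 2-1) fell within the upper control range. The log2 fold change was 0.27 (SE 0.081), with an unadjusted p of 0.00326 and an adjusted p of 0.739 in the edgeR fit. Leaving out single libraries gave 0.21 to 0.30, and a fit with the Y-linked level as a term gave 0.25. Of 9 astrocyte markers tested at E18.5, 0 passed the adjusted threshold and 1 had an unadjusted p under 0.05, with a median log2 fold change of -0.05; their summed level was 405 to 465.7 CPM in control and 412 to 454 CPM in TETA. The part of astrocyte RNA in the Hopx values was not tested.

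The intermediate filament genes that build the radial glial scaffold also overlapped between groups at E18.5. Vim was at 151 to 184 CPM in control (median 172) and at 164 to 185 CPM in TETA (median 181), a log2 difference of 0.05 (SE 0.047). Nes, which encodes nestin, was at 107 to 125 CPM in control (median 116) and at 113 to 130 CPM in TETA (median 118), a log2 difference of 0.02 (SE 0.042).

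Genes of the next steps, from commitment to migration, showed differences smaller than their SE at E18.5. Neurog2, the proneural factor that drives cortical progenitors towards glutamatergic neurons, was at 12.5 to 18.01 CPM in control (median 16.8) and at 14.4 to 18.4 CPM in TETA (median 16.2). Eomes, the T-box factor of intermediate progenitors, was at 24.5 to 33.0 CPM in control (median 31.0) and at 26.9 to 38.4 CPM in TETA (median 30.3). Control replicate 1-2 set the low end of both control ranges, and TETA replicate 1-2 the high end for Eomes. Log2 fold changes were 0.01 (SE 0.077) for Neurog2 and 0.03 (SE 0.078) for Eomes; with both libraries numbered 1-2 left out they were -0.02 and -0.09. Dcx was at 1990 to 2395 CPM in control (median 2125) and at 1984 to 2350 CPM in TETA (median 2227), a log2 difference of 0.02 (SE 0.050).

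Other genes of the same pathways were taken from 4 lists: 28 Notch pathway genes, 23 radial glial genes, 20 intermediate progenitor genes and 20 neuroblast genes. At E18.5, 0 of the 28, 23, 19 and 20 members tested passed the adjusted threshold. Median log2 fold changes were 0.02, -0.01, 0.03 and 0.02 in that order, where the median over all genes was 0.00 to 2 decimals, negative in sign at -0.0027. The Notch gene with the smallest p was Notch3, a receptor also found on vessel wall cells, with 29.9 ± 2.54 CPM in the control group against 32.6 ± 1.95 CPM after TETA (SD, n = 6 and 6; log2 fold change 0.12, SE 0.059). Dlk1, a noncanonical Notch ligand, and Rfng, a Notch-modifying glycosyltransferase, had log2 fold changes of 0.17 and -0.07. Among radial glial genes the smallest p-values belonged to Ednrb, Tnc and Id4, with log2 fold changes of -0.09, 0.09 and -0.08. An unadjusted p under 0.05, which 4.78% of all genes had, was reached by 2 intermediate progenitor genes, Nhlh2 (0.21) and Dlx1 (-0.11), and by 2 neuroblast genes, Reln (0.18) and Ncam1 (0.11); Insm1 and Nrxn3 followed in these lists with 0.09 and 0.10. Beside these values, 4 of 8 endothelial genes (Vwf, Kdr, Flt1 and Pecam1) had an unadjusted p under 0.05, with a median of 0.17 over the list and summed levels of 168 to 198 CPM in control and 195 to 215 CPM in TETA. Of 6 meningeal and pericyte genes tested, 2 did, the pericyte genes Vtn (0.24) and Pdgfrb (0.16), with summed levels of 44.3 to 55.2 CPM in control libraries and 49.7 to 72.3 CPM after TETA. The part of either cell type in the values of the members and of Notch3 was not tested.

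At 7 weeks, the comparison of TETA with control asks the same of postnatal brain, where these genes mark glia and the few remaining progenitors. Hes1 rose in TETA, and Hes5 and Sox2 fell. Of the 9 members tested, 6 had a log2 fold change above 0 (50.1% of all genes), and unadjusted p-values under 0.05 were found for 3 (24.0%). The same 3 passed the adjusted threshold in the edgeR fit, where 9.96% of all 14240 genes tested passed; 1 was higher (5.67% of all genes) and 2 were lower (4.28%). Eomes, with 3 to 8 counts per library, did not pass the filter on low counts and was not tested. The groups did not overlap for 2 members, Hes1 and Hes5, and for 11.2% of all genes. Of the 1418 genes that passed in all, 57.0% were higher in TETA, against 67.6% with library totals in place of TMM scaling. Among the fits that left out 1 library, the count over all genes was lowest without TETA replicate 3, at 927, and Hes1 and Hes5 passed without any single library.

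**Figure D2:**
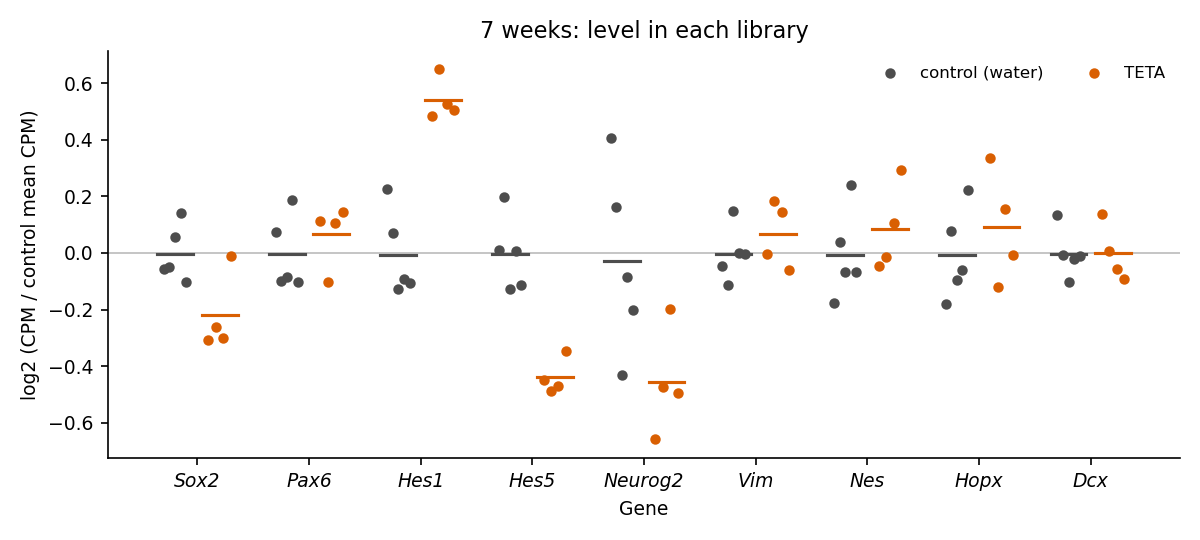
Level of the 9 members tested at 7 weeks in each library, as log2 of CPM over the control mean (vertical axis), for 5 control (grey) and 4 TETA (orange) libraries; points are libraries and short lines the mean of the points. All TETA libraries lie above control for Hes1 and below control for Hes5, and 1 TETA library lies within the control range for Sox2.

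Hes1 was at 7.89, 7.09, 6.17, 6.33 and 6.27 CPM in control replicates 1 to 5. In TETA replicates 1 to 4 it was at 9.45, 10.6, 9.72 and 9.57 CPM. The lowest TETA library was above the highest control library, replicate 1. The means were 6.75 ± 0.733 CPM and 9.83 ± 0.517 CPM (SD, n = 5 and 4), a log2 difference of 0.54 (SE 0.091), or 1.45-fold, with an adjusted p of 0.000672 in the edgeR fit.

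Hes5 moved the other way. It was at 10.9, 12.4, 9.88, 10.8 and 9.96 CPM in control replicates 1 to 5. The TETA libraries held 7.90, 7.69, 7.78 and 8.47 CPM, all of them under the lowest control library, replicate 3. The means were 10.8 ± 1.00 CPM and 7.96 ± 0.348 CPM (SD, n = 5 and 4), a log2 difference of -0.44 (SE 0.084; adjusted p = 0.00192 in the edgeR fit). In fold terms Hes5 was 1.36-fold lower in TETA.

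The ratio of Hes1 to Hes5 counts needs no scaling of libraries and was looked at after these values were seen, as a description with no test. At 7 weeks it ran from 0.573 to 0.727 in control and from 1.13 to 1.38 in TETA, so that Hes1 counts exceeded Hes5 counts in all 4 TETA libraries and in 0 of 5 control libraries. At E18.5 it ran from 0.305 to 0.370 in control and from 0.264 to 0.352 in TETA. The groups thus overlapped in the embryo and lay apart at 7 weeks. At 7 weeks the ratio had to separate, since Hes1 alone lay apart as higher and Hes5 alone as lower.

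**Figure D3:**
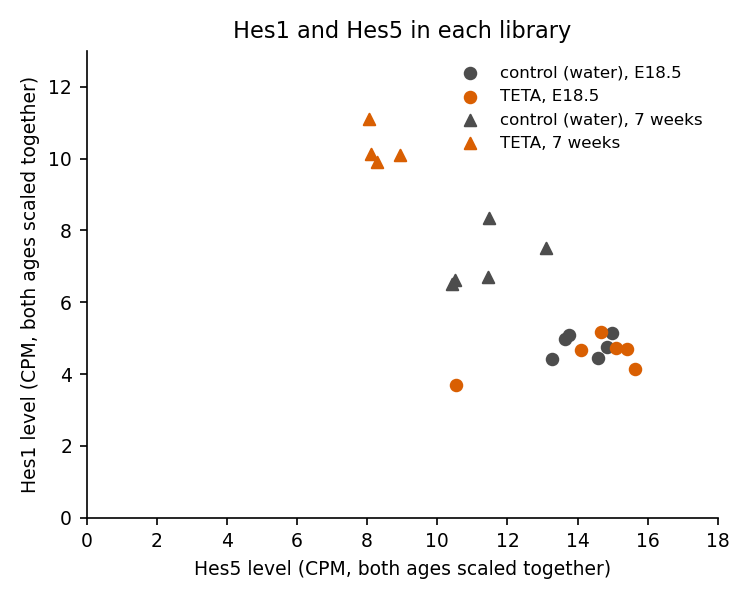
Hes1 level against Hes5 level in each of the 21 libraries, both in CPM with the libraries of both ages scaled together; circles are E18.5, triangles 7 weeks, grey control and orange TETA. The 4 TETA libraries at 7 weeks lie at higher Hes1 and lower Hes5 than all 5 control libraries of that age, while the E18.5 groups are mixed.

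Sox2 was at 26.3, 26.5, 28.5, 30.1 and 25.5 CPM in control replicates 1 to 5 at 7 weeks, and at 22.1, 22.8, 22.2 and 27.1 CPM in TETA. TETA replicates 1 to 3 lay under all control libraries, and TETA replicate 4 lay among them. The log2 fold change was -0.21 (SE 0.067; adjusted p = 0.0469 in the edgeR fit), close to the threshold. It did not pass with library totals in place of TMM scaling (adjusted p = 0.0628), nor without any 1 of control replicates 1 to 4 or of TETA replicates 1 to 3 (0.0533 to 0.155); without TETA replicate 4 the log2 fold change was -0.29 (adjusted p = 0.00666).

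The other members tested at 7 weeks did not pass. Neurog2 had few counts, with 15 to 33 counts per library in control and 14 to 22 in TETA, or 1.44, 1.22, 0.805, 1.02 and 0.944 CPM against 0.687, 0.780, 0.946 and 0.770 CPM. Its log2 fold change of -0.46 had an SE of 0.23 (adjusted p = 0.243 in the edgeR fit). Pax6 ran from 6.35 to 7.77 CPM in control libraries and from 6.36 to 7.55 CPM after TETA, with a log2 difference of 0.08 (SE 0.096). Vim, Nes and Hopx had log2 fold changes of 0.07 (SE 0.060), 0.09 (SE 0.088) and 0.10 (SE 0.082). Without single libraries these ran from 0.034 to 0.111, from 0.021 to 0.158 and from 0.016 to 0.168, in that order. Dcx ran from 36.5 to 42.9 CPM in control libraries and from 36.8 to 43.1 CPM after TETA, and its log2 fold change was 0.00 to 2 decimals (SE 0.054). Eomes, not tested, ran from 0.126 to 0.343 CPM in control libraries and from 0.129 to 0.289 CPM after TETA.

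**Figure D4:**
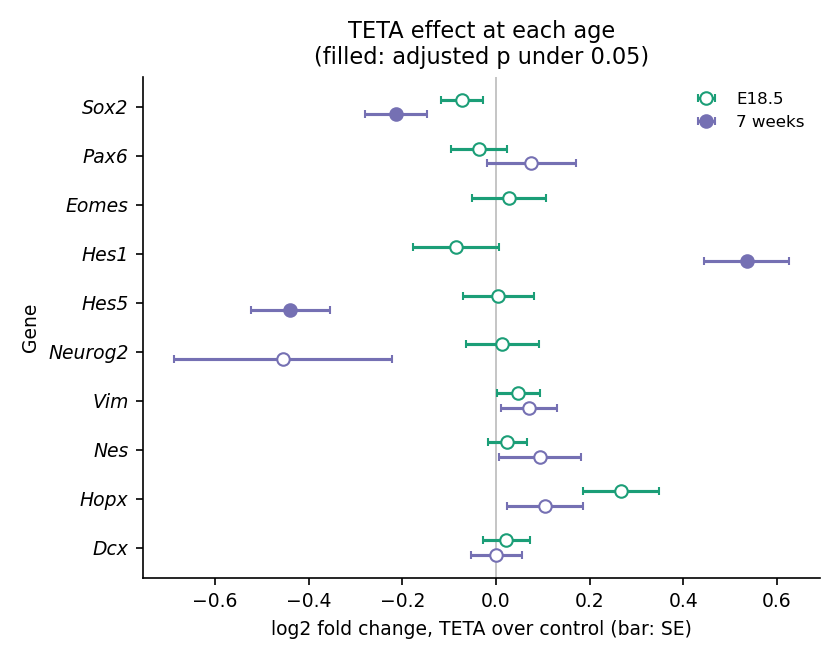
Log2 fold change of TETA over control (horizontal axis) for each member at E18.5 (green) and 7 weeks (purple), with the SE as bar; filled points passed an adjusted p of 0.05 and Eomes has no value at 7 weeks. Only Hes1, Hes5 and Sox2 at 7 weeks are filled, Hes1 at 0.54 and Hes5 at -0.44.

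Whether the effects differ between ages was tested as an interaction in 1 fit of all 21 libraries. The TETA effect on Hes1 was larger at 7 weeks than at E18.5 by 0.61 on the log2 scale (SE 0.13; adjusted p = 0.00462 in the edgeR fit). For Hes5 the same difference between effects was -0.46 (SE 0.12; adjusted p = 0.0275 in the same fit). Of the 10 members 2 passed, where 3.1% of all 14660 genes did, 1 with a positive difference (1.67% of all genes) and 1 with a negative one (1.43%). The difference was above 0 for 4 members (47.6% of all genes), and the unadjusted p was under 0.05 for the same 2 (15.9%). Of the 454 genes that passed, 54.0% had a positive difference, against 72.0% without TMM scaling and 45.5% of the 616 that passed in DESeq2, so the majority direction depends on the method. The Hes5 difference missed the threshold when any 1 of 6 libraries was left out: TETA replicates 1-1 and 3-2 at E18.5, control replicate 2 at 7 weeks, and TETA replicates 1 to 3 at 7 weeks (adjusted p from 0.0501 to 0.0718). For Sox2 the difference was -0.15 (SE 0.083; adjusted p = 0.382), so its effect is not shown to differ between ages.

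In the Notch pathway list at 7 weeks, 4 of 28 genes passed in the edgeR fit, 2 higher and 2 lower, where 9.96% of all genes passed (5.67% higher and 4.28% lower), with a median log2 fold change of 0.00 (0.002) where that of all genes was 0.0002. Numbl, an inhibitor of Notch signalling, rose from 112 ± 6.59 CPM to 132 ± 7.10 CPM (SD, n = 5 and 4; log2 fold change 0.24, SE 0.045, adjusted p = 0.0014). Jag2, a Notch ligand named after its values were seen, rose by 0.16 (SE 0.048). The receptor Notch2 fell from 24.2 ± 0.893 CPM to 20.7 ± 1.75 CPM (log2 fold change -0.22, SE 0.060). Nrarp, a Notch target that feeds back on the pathway, fell from 17.8 ± 1.503 CPM to 14.5 ± 2.17 CPM (log2 fold change -0.30, SE 0.087). A count this small lies near that share, and it was 1 to 4 when single libraries were left out, with 1 without TETA replicate 4 and 2 without control replicate 1 or 4 or TETA replicate 2 or 3.

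Of the radial glial list, 1 of 22 genes passed at 7 weeks, no more than the 9.96% of all genes, and the median log2 fold change was -0.08. Ccnd1, a G1 cyclin, rose from 46.9 ± 4.59 CPM to 54.9 ± 6.34 CPM (log2 fold change 0.23, SE 0.071, adjusted p = 0.0474 in the edgeR fit). Sox9 and Gli3, transcription factors of radial glia and astrocytes, had log2 fold changes of -0.33 (SE 0.11) and -0.27 (SE 0.094) with adjusted p-values of 0.0739 and 0.079. The radial glial count was 0 to 3 when single libraries were left out: 0 without control replicate 4 or TETA replicate 1, 3 or 4, 2 without control replicate 1 or TETA replicate 2, and 3 without control replicate 5. In the intermediate progenitor list 1 of 17 passed, likewise no more than that share: Neurod2, a neuronal differentiation factor that adult excitatory neurons keep, rose from 88.4 ± 7.47 CPM to 103 ± 5.18 CPM (log2 fold change 0.22, SE 0.052); without control replicate 4, 2 passed. Sstr2 and Gadd45g followed with 0.155 and 0.23, adjusted p-values 0.0805 and 0.12. In the neuroblast list 3 of 20 passed, all lower, where 9.96% of all genes passed and 4.28% passed as lower: Sox4 (-0.28, SE 0.059), Bcl11b (-0.21, SE 0.055) and Unc5d (-0.15, SE 0.044); without TETA replicate 1 or 3, 1 passed. Bcl11b is also a factor of striatal neurons.

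Markers of other regions and cell types moved at 7 weeks too. Over all genes tested, 9.96% passed the threshold, 5.67% as higher and 4.28% as lower. The groups did not overlap for 11.2% of all genes. A count of 1 gene in a list of 8 lies near the share that passed. All 13 striatal genes examined fell, with a median log2 fold change of -1.34, and their summed level was 1188 to 1454 CPM in control and 554 to 695 CPM in TETA. Of 10 astrocyte genes, 4 fell (Slc4a4, Slc1a2, Aldoc and Aldh1l1, by -0.29, -0.21, -0.21 and -0.21) and 0 rose. The summed level of the list was 5382 to 6166 CPM in control and 4896 to 5244 CPM in TETA, without overlap. Most of that sum was Slc1a2, with means of 3905 CPM in control and 3383 CPM in TETA. Astrocyte genes short of the threshold ran from -0.125 (Gfap) to 0.098 (Gja1). Of 8 endothelial genes Flt1 rose (0.22), with sums of 158 to 184 CPM in control and 168 to 189 CPM in TETA. Meningeal and pericyte genes had 2 of 7 lower, the collagen genes Col1a1 (-0.55) and Col1a2 (-0.40), with sums of 114 to 130 CPM in control and 102 to 113 CPM in TETA. Of 8 oligodendrocyte lineage genes Pdgfra fell (-0.19), and of 4 choroid plexus genes tested Clic6 fell (-1.60), from 0.922 to 2.197 CPM in control to 0.240 to 0.725 CPM in TETA. Of 6 neuronal genes Snap25 rose (0.08) and Gad2 fell (-0.16), and the cortical factor Emx1 fell (-0.26). Microglial genes had 0 of 6 and ependymal genes 0 of 5 past the threshold. The part of these cell types in the members' values was not tested. With a striatal score as covariate, 0 of all genes passed in the edgeR fit, and 699 had unadjusted p-values under 0.05; the score separates the groups completely, and the log2 fold changes were 0.71 (SE 0.34) for Hes1, -0.57 (SE 0.33) for Hes5 and -0.14 (SE 0.26) for Sox2, each with an adjusted p of 0.998. The treatment and the striatal share of the libraries cannot be told apart here.

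The levels were then set side by side between ages, in control libraries of both tables joined by symbol. Of the members, Sox2, Pax6, Hes5, Vim, Nes, Neurog2, Eomes and Dcx were lower at 7 weeks, while Hopx and Hes1 were higher. Age cannot be told apart from the table, the dissected region or the sex of the animals. All 10 members passed the adjusted threshold in the edgeR fit over 14375 genes, but so did 89.5% of all genes (44.0% higher and 45.5% lower). An unadjusted p under 0.05 was reached by all 10 and by 89.8% of all genes, and 2 members, like 49.2% of all genes, had a log2 fold change above 0. In CPM the groups did not overlap for any member and for 80.2% of all genes. An absolute log2 fold change above 2 was reached by 6 of 10 members and, past the threshold, by 16.3% of all genes. Eomes passed the filter only through its E18.5 levels and so had to differ. The members' median log2 fold change was -2.13, against -0.02 over all genes; with library totals in place of TMM scaling the median over all genes was -0.17, and the direction of every member was kept.

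**Figure D5:**
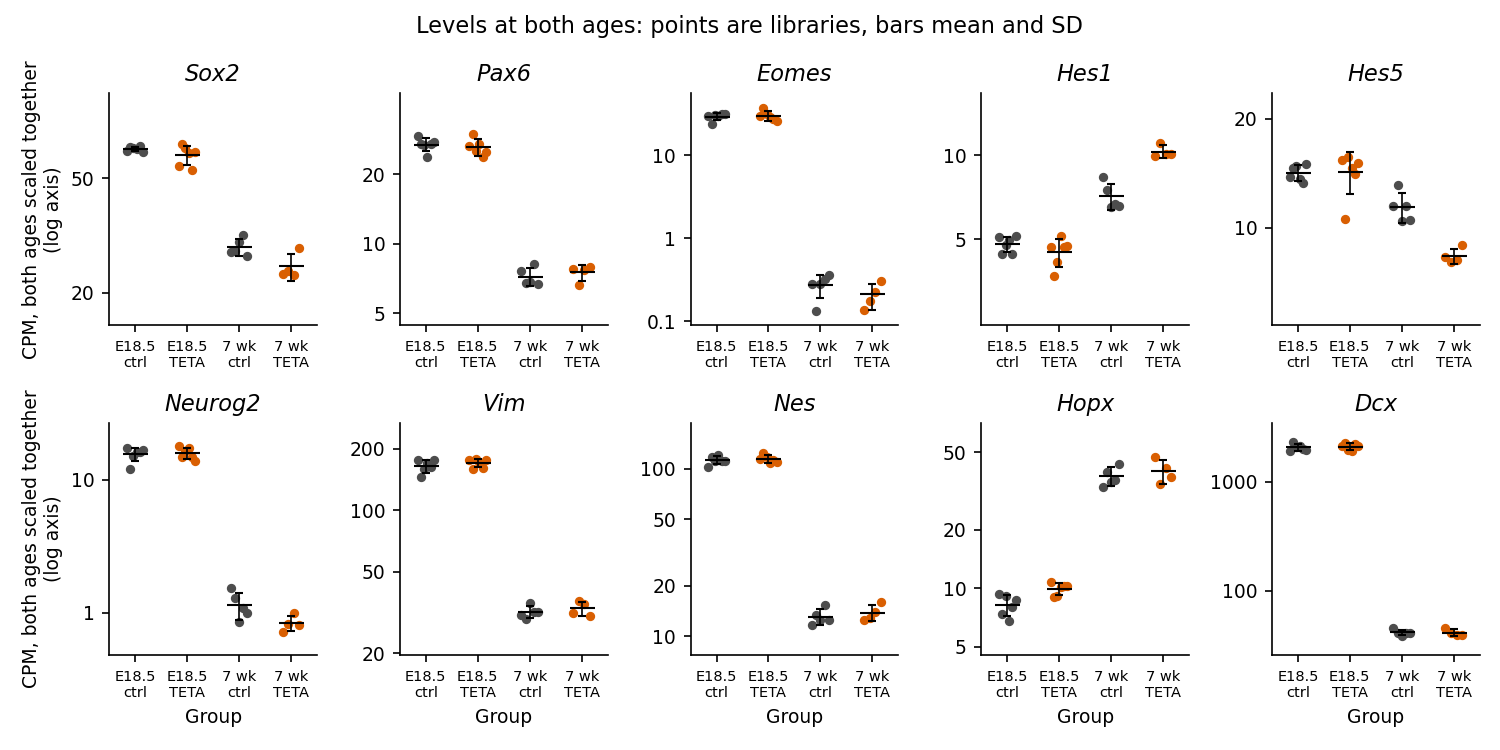
Levels of the 10 members in the 4 groups, in CPM with both ages scaled together, on a log axis of its own for each gene; grey points are control and orange TETA libraries, and bars give the mean and SD. Eomes, Neurog2, Dcx, Nes and Vim are far lower at 7 weeks, Hopx is higher, and Hes1 rises from E18.5 to control and then to TETA at 7 weeks.

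Dcx and Eomes had the largest fitted falls of the members. On the scale of both ages together, Dcx was at 1910 to 2309 CPM at E18.5 and at 45.4, 41.2, 38.5, 40.7 and 41.0 CPM in control replicates 1 to 5 at 7 weeks, a log2 difference of -5.64 (SE 0.058). Eomes went from 23.6 to 31.7 CPM down to 0.133 to 0.362 CPM, a log2 difference of -6.71 (SE 0.14). With 3 to 8 counts per control library at 7 weeks, Eomes had to fall, and the size of its change depends on the prior count. Neurog2 went from 12.04 to 17.3 CPM down to 0.850 to 1.52 CPM, a log2 difference of -3.74 (SE 0.13).

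Among the radial glial markers, Nes and Vim fell and Hopx rose. Nes went from 112 ± 6.001 CPM to 13.1 ± 1.48 CPM (SD, n = 6 and 5; log2 fold change -3.10, SE 0.060), and Vim from 164 ± 11.8 CPM to 31.8 ± 2.14 CPM (log2 fold change -2.37, SE 0.054). Hopx went from 8.23 ± 1.01 CPM to 37.5 ± 4.19 CPM, a log2 difference of 2.195 (SE 0.081) or 4.58-fold. In the same libraries the 10 astrocyte genes tested were higher at 7 weeks, 1 of which, Gjb6, was near 0 at E18.5, entered only through its 7-week level and so had to rise. The list had a median log2 fold change of 3.06 and summed levels, each scaled within its age, of 405 to 465.7 CPM at E18.5 and 5382 to 6166 CPM at 7 weeks. Their part in the Hopx difference was not tested.

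Sox2, Pax6 and the Hes genes differed less between ages. Sox2 went from 63.4 ± 1.07 CPM to 28.9 ± 2.01 CPM (SD, n = 6 and 5; log2 fold change -1.13, SE 0.047) and Pax6 from 26.9 ± 1.78 CPM to 7.21 ± 0.669 CPM (log2 fold change -1.89, SE 0.070). Hes5 went from 14.2 ± 0.717 CPM to 11.4 ± 1.07 CPM, a log2 difference of -0.31 (SE 0.068), and Hes1 rose from 4.81 ± 0.310 CPM to 7.13 ± 0.783 CPM, a log2 difference of 0.58 (SE 0.093). Between TETA libraries the same contrast was -0.76 for Hes5 and 1.19 for Hes1.

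Over the 4 groups, Hes1 was ordered E18.5 TETA, E18.5 control, 7-week control and 7-week TETA from low to high, and only the E18.5 groups overlapped. Hes5 ran the other way, with both E18.5 groups highest, 7-week control next and 7-week TETA lowest; the E18.5 TETA range (10.5 to 15.7 CPM) reached into that of 7-week control (10.4 to 13.1 CPM) through replicate 1-2. For Sox2 the 7-week groups overlapped, as did the E18.5 groups, and the ages did not. For the other 7 members treated and control libraries overlapped within each age and the ages lay apart.

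Per kilobase of annotated exon, Dcx was the most abundant member in control at E18.5, at 164 ± 11.4 CPM per kb (SD, n = 6), followed by Vim (34.7 ± 2.48) and Sox2 (30.8 ± 0.521). At 7 weeks the most abundant was Hopx, at 24.7 ± 2.76 CPM per kb (SD, n = 5), followed by Sox2 (14.1 ± 0.979) and Hes5 (8.35 ± 0.788). The lowest was Pax6 at E18.5 (2.30 ± 0.152), with Hes1 within its spread (2.36 ± 0.152), and Eomes at 7 weeks (0.0664 ± 0.0209). Lengths are unions of GENCODE exons, and the annotation used for counting is not given in the sources used here.

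In the lists, 27 of 28 Notch pathway genes passed between ages in the edgeR fit, 6 higher and 21 lower, where 89.5% of all genes passed (44.0% higher and 45.5% lower), with a median log2 fold change of -0.61. The largest changes were those of Dlk1 (-3.08), the ligand Dll1 (-2.59) and Hes6 (-2.40), a Hes relative that promotes neuronal differentiation. Of 23 radial glial genes 18 fell and 3 rose, and the largest fitted changes were those of Tfap2c (-5.66), Tnc (-5.65) and Fabp7 (-5.28), the radial glial fatty acid-binding protein. Of 19 intermediate progenitor genes 14 fell and 1 rose, with the largest fitted changes in Nhlh2 (-6.33), Insm1 (-3.20) and Gsx2 (-3.03). Tfap2c, Nhlh2 and Gsx2 were too low at 7 weeks to pass the filter there; they entered only through their E18.5 levels and so had to fall, and the size of their changes depends on the prior count. Of 20 neuroblast genes 16 fell and 4 rose, led by Cd24a (-7.10), Igfbpl1 (-7.01) and Sox11 (-6.26), markers of newly born neurons.

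How the members varied together within groups was described over the 12 libraries at E18.5, as Pearson's r of deviations from the group means in log2 CPM. The members share the library's depth and RNA, so these values are descriptions with no test. Among members the highest r at E18.5 was 0.76 for Neurog2 with Vim, followed by Nes with Dcx and Hes1 with Hes5 (both 0.61), and the lowest was -0.81 for Nes with Hopx. Over the 9 libraries at 7 weeks the same pairs had r of -0.32, -0.60, 0.39 and -0.09 in that order. The first 2 thus had the opposite sign there. At E18.5, TETA replicate 1-2 was the lowest of its group for Hes1 (3.83 CPM) and Hes5 (10.9 CPM). Control replicate 1-2 was the lowest of its group for Neurog2 (12.5 CPM) and Vim (151 CPM). No r was computed without these libraries, so their part in the E18.5 values, those below included, was not tested. Of 11254 genes at a mean of at least 5 CPM, the 3 most like Hes1 were Ilvbl, Faap100 and Lrrc73 (r from 0.94 to 0.95), and those most like Hes5 were Tusc3, Ufc1 and Mrpl33 (0.92 to 0.94). For Sox2 they were Cntrob, Zfp664 and Wdyhv1 (0.90 to 0.91), and for Pax6 Itgb3bp, Jdp2 and Nbn (0.86 to 0.89). For Vim they were Med22, 2310022A10Rik and Leprot (0.94 to 0.95), for Nes Kdm6b, Sox4 and Nedd4l (0.93 to 0.94), and for Hopx Ywhab, Pgam5 and Gpr180 (0.895 to 0.91). For Neurog2 they were Exo5, Pdxp and Dynlt1f (0.93 to 0.95), for Eomes they included Zfp414 (0.93) and Ezr (0.92), and for Dcx Slc8a1, Kcnma1 and Arhgap20 (0.98 to 0.99).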

How the data were processed

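RNA was sequenced from stranded poly(A) libraries (TruSeq), per the labels' protocols. For each age the authors deposited 1 table of raw counts, in whole numbers, with genes named by symbol. The submitters' processing notes name STAR 2.7.1a, featureCounts 2.0.1 and mm10; whether counting used strand is not given in the sources used here. In GENCODE vM21, Pax6, Eomes, Hes5 and Hopx overlap genes on the opposite strand and Sox2 lies within Sox2ot, none of which is in the tables. These are overlaps of whole gene spans, and shared exons were not examined. Where exons are shared, reads of the Sox2 pair cannot be told apart. Those of the other pairs can be only if counting used strand.

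Every column matched 1 sample. No replicate pair agreed within counting noise (lowest chi-square per gene 2.31). Rows of the E18.5 table at 0 in control replicate 1-1 and multiples of 11 elsewhere were divided by 11; the deposited counts were an alternative. Genes were kept by filterByExpr (minimum count 10), scaled by TMM and tested with edgeR's quasi-likelihood test (BH adjustment, threshold 0.05). Each age was fitted alone; the stage comparison used the 11 control libraries and the interaction all 21. An SE is the log2 fold change divided by the square root of F. Log2 CPM used a prior count of 2. Fits ran in R 4.3.3 (DESeq2 1.42.0, edgeR 4.0.16, limma 3.58.1) and summaries in Python 3.11.15 (pandas 2.3.3).

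The members and lists were chosen with earlier results of these data known. Named are all members, the 3 list genes with the smallest p (between ages, the largest change), and the 3 genes most like each member; some genes are not reported here. On simulated counts with 200 genes changed by 0.5 on the log2 scale, the E18.5 fit (13735 genes) recovered 88.5% and called 16 others, and the 7-week fit (14174 genes) recovered 80% and called 10 others. Alternatives were other filters, DESeq2, library totals, covariates, a replicate block and leaving out each library, with quality weights in limma voom added later.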

Additional observations from a re-analysis of the deposited data

Results flagged for a closer look

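Hes1 and Hes5 were looked at again because their TETA effects differed between ages. The effect on Hes1 at 7 weeks exceeded that at E18.5 by 0.61 on the log2 scale (SE 0.13, adjusted p = 0.00462 in edgeR, 21 libraries), and it was 0.56 to 0.67 without any single library. For Hes5 the difference was -0.46 (SE 0.12, adjusted p = 0.0275), and it was -0.53 to -0.40 without any single library, missing the threshold in 6 of those fits.

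In 5 of 40 combinations of a member and a group, 1 library stood apart from the rest by Dixon's ratio, the gap to its nearest neighbour over the range of the group in log2 CPM; chance gives about 2.0. At 7 weeks these were Sox2 in TETA replicate 4, at 27.1 CPM where the other 3 held 22.1 to 22.8 CPM (ratio 0.852), and Pax6 in TETA replicate 2, at 6.36 CPM where the others held 7.35 to 7.55 CPM (ratio 0.844). At E18.5, control replicate 1-2 was low for Eomes (24.5 CPM against 30.6 to 33.0, ratio 0.748) and for Neurog2 (12.5 CPM against 15.7 to 18.01, ratio 0.630). TETA replicate 1-2 was low for Hes5 (10.9 CPM against 14.6 to 16.3, ratio 0.730).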

How the results depend on the processing

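At E18.5 the count of genes past the threshold was 0, and it was 10 with DESeq2 (10 also on the counts as deposited), 7 with both libraries numbered 1-2 left out, 8 with library quality weights in limma voom, and 0 to 7 without single libraries; 0 members passed in any of these. The weights and DESeq2 on deposited counts were chosen after seeing the data. At 7 weeks the count of 1418 became 0 with the striatal score as a covariate and 927 to 1392 without single libraries (927 without TETA replicate 3). The interaction count of 454 was 290 to 622 without single libraries (290 without TETA replicate 3 at 7 weeks, 622 without TETA replicate 1-2 at E18.5). The cause of each change was not tested. Fits that left out libraries had fewer samples, while the DESeq2, weighted and covariate fits used all libraries of their age.

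Several small differences changed sign. At E18.5, Eomes was -0.0938 with both libraries numbered 1-2 left out, -0.0623 with weights and -0.0432 to 0.0684 without single libraries. Neurog2 was -0.024, -0.0066 and -0.0395 to 0.0507 in the same settings. Hes5 was -0.0022 with library totals, -0.012 with the Y-linked level as a covariate and -0.0218 to 0.0791 without single libraries. Nes and Dcx were -0.0034 to 0.0441 and -0.00035 to 0.0578 without single libraries. At 7 weeks, Nes and Hopx were -0.28 and -0.23 with the striatal covariate, which also moved Dcx to 0.32, Neurog2 to -0.88 and Vim to 0.13 with no change of sign. Dcx was -0.0018 with DESeq2, -0.00085 with the replicate block and -0.0497 to 0.0368 without single libraries.

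Same-numbered control and TETA libraries deviated with a mean correlation of 0.0185 at E18.5 (-0.275 to 0.284) and -0.050 at 7 weeks. For numbers 1-1 and 1-2 at E18.5 (r of 0.20 and 0.28) the same-numbered TETA library was the closest match. For the other numbers at either age it was not. With the replicate block, 0 genes passed at E18.5 (719 at an unadjusted p under 0.05) and 1072 passed at 7 weeks, 3 of them members. A block on the first part of the number also passed 0 genes at E18.5 (675 at an unadjusted p under 0.05). Neurog2 and Eomes at 7 weeks had at most 33 and 8 counts per library; the part of depth in the Neurog2 result was not tested.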
